A study of Mus musculus with 32 samples.

Results

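Interferon-inducible GTPases are proteins that cells make to fight microbes inside them, and IRF1 is a transcription factor that helps to switch on their genes. The 10 genes described here are 5 guanylate-binding proteins (Gbp2, Gbp3, Gbp5, Gbp7 and Gbp9), 4 immunity-related GTPases (Irgm1, Irgm2, Igtp and Iigp1) and Irf1. They were taken by symbol from the 57186 genes listed in the count table, and all 10 were among the 14428 genes that held enough counts to be tested. Gbp5 and Gbp9 passed that filter only through the groups given TNF-alpha. RNA came from adipocytes of the mouse line 3T3-L1, which were differentiated in culture with insulin, dexamethasone and IBMX before any treatment, so all groups share that history. The 8 groups of 4 libraries each were SCO, CAP7 or rosiglitazone (ROSI) together with TNF-alpha (TNF), the DMSO vehicle together with TNF, SCO, CAP7 or ROSI without TNF, and DMSO without TNF. All treatments lasted 24 h. ROSI is an agonist of the nuclear receptor PPARγ. What SCO and CAP7 stand for is not spelled out in the labels, although an extract of Artemisia scoparia appears in the title of the series, and no dose is stated. 3T3-L1 is 1 clonal line, so the data describe these cultured fat cells and no other cell of adipose tissue.

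As background, guanylate-binding proteins are dynamin-like GTPases that gather on the vacuoles of intracellular bacteria and parasites, help to break them open and expose their contents to inflammasomes. Among the immunity-related GTPases of the mouse, Iigp1 acts on such vacuoles, while Irgm1, Irgm2 and Igtp sit on the cell's own membranes and keep effectors such as Iigp1 inactive there. Interferon-gamma induces these genes through JAK kinases and STAT factors, which bind DNA elements called GAS, and IRF1 adds to this through elements called ISRE, which also serve the response to type I interferon. TNF signals mainly through NF-κB, which binds κB elements, and Irf1 is a known target of both NF-κB and interferon signalling. In fat cells interferon-gamma is known to lower the response to insulin.

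The promoter sequences are shown because the elements named above can be read in them and because the genes moved together with TNF. The RefSeq table for build GRCm38.p6 held 10 windows of 300 bases around an annotated start for 8 of the 10 genes, matched by symbol (all but Gbp9 and Iigp1). The stretches below run 5′ to 3′ in the direction of the gene, and capitals mark bases that match a searched motif on either strand. The motifs were the ISRE core, which is GAAA, any 2 bases and GAAA again, the GAS element TTCNNNGAA, which reads the same on both strands, and the κB consensus.
Irf1 (chr11:53769894-53770013, plus strand): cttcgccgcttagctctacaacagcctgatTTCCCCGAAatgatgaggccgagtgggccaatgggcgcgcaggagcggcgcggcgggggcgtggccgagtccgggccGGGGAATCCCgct
Gbp2 (chr3:142620543-142620662, plus strand): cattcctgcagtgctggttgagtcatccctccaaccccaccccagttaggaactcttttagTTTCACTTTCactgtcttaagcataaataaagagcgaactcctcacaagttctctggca
Gbp3 (chr3:142559924-142560043, plus strand): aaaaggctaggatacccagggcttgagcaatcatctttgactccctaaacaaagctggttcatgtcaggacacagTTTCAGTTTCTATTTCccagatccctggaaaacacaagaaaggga
Gbp5 (chr3:142496764-142496933, plus strand): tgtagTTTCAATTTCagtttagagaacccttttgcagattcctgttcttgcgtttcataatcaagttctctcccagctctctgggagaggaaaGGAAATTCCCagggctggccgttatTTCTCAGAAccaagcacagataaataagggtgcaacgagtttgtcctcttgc
Gbp7 (chr3:142530216-142530335, plus strand): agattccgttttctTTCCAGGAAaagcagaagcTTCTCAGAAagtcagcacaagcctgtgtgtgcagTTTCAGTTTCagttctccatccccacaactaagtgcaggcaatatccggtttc
Irgm1 (chr11:48871421-48871540, minus strand): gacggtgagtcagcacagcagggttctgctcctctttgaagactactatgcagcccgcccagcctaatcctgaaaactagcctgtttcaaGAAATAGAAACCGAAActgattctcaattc
Irgm2 (chr11:58214857-58214976, plus strand): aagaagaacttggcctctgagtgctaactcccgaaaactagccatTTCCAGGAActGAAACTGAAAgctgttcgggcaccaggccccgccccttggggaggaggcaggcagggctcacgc
Igtp (chr11:58199436-58199555, plus strand): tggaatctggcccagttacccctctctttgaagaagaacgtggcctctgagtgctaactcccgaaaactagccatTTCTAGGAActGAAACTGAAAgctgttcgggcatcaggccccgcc

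The ISRE core was present in a window of all 7 GTPase genes in the table and in neither window of Irf1, while 3.43% of 32817 windows of the same length held it. Gbp3 and Irgm1 each carried a pair of ISRE matches that overlap. The GAS element was in the windows of 5 of the 8 genes (Irf1, Gbp5, Gbp7, Irgm2 and Igtp), against 8.29% of all windows. The κB consensus was in the windows of Irf1, from 13 to 4 bases before the start, and of Gbp5, from 77 to 68 bases before it, and 4.50% of all windows had it. Gbp5 was thus the gene with all 3 motifs. The windows of Igtp and Irgm2 were alike in part, with 184 of 270 bases identical without gaps (68.2%) and an identical run of 61 bases. A match describes letters in a window and does not show that a factor binds there.

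**Figure D1:**
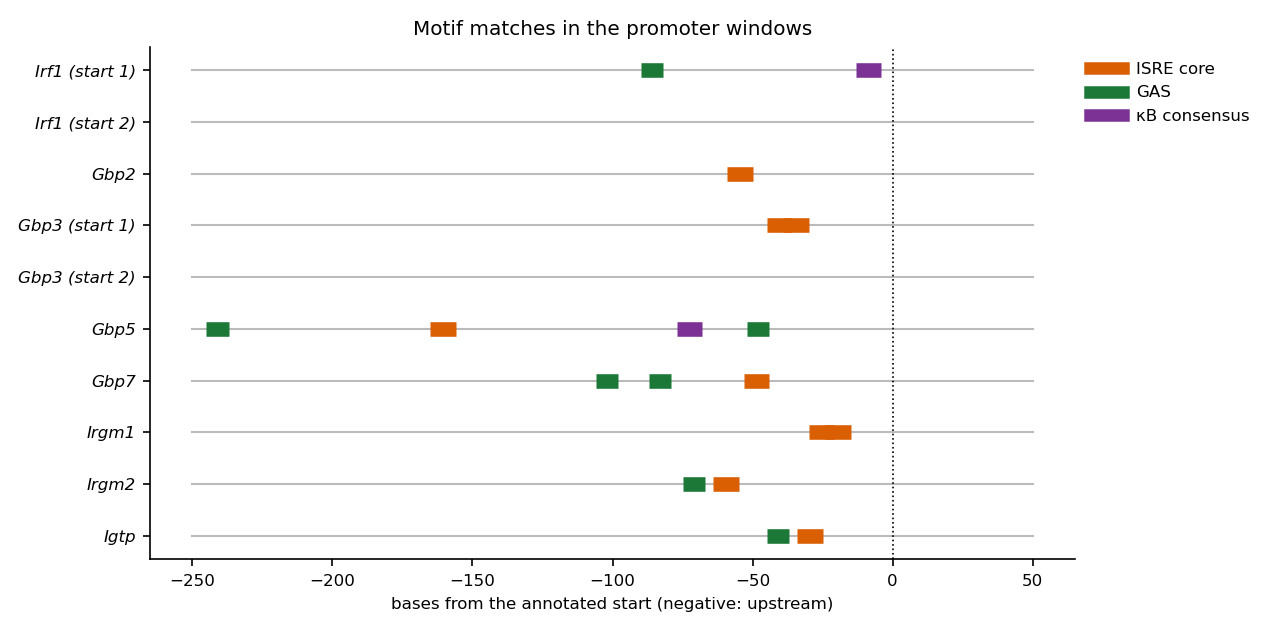
Positions of motif matches in the 10 promoter windows of 8 genes, in bases from the annotated start, with upstream positions negative. Orange blocks (ISRE core) appear in 7 windows and in neither Irf1 window, green blocks (GAS) in 5, and purple blocks (κB consensus) in 1 window each of Irf1 and Gbp5.

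Library totals ran from 11.3 M to 37.7 M counts (median 20.9 M). The label adipocyte was checked with 10 defining markers, which summed to between 12698 and 66528 CPM (normalised counts-per-million) with TNF and between 42445 and 85772 CPM without. Of 9 T and NK cell markers 6 had no count in any library, and the list summed to at most 0.257 CPM. Of 10 macrophage and leukocyte markers Adgre1 and Tyrobp were at 0 everywhere, and the list summed to between 9.23 and 28.3 CPM with TNF and between 1.34 and 4.87 CPM without. The 7 endothelial and mural markers summed to between 1.52 and 3.73 CPM with TNF and between 1.80 and 6.59 CPM without. In bulk RNA, fewer cells of a type and less RNA per cell cannot be told apart. There were 4 libraries that stood apart from their groups for the GTPase genes: DMSO without TNF replicate 4, CAP7 without TNF replicate 1 and ROSI without TNF replicate 3 were high, and ROSI with TNF replicate 3 was low. Other libraries deviated as much but did not meet the whole rule given under processing. ROSI without TNF replicate 2 and DMSO without TNF replicate 1 were low, with median log2 deviations of -0.86 and -0.81 over 7 GTPase genes. That of DMSO without TNF replicate 4 was 0.65. Comparisons of treatments that rest on the 4 libraries are given with and without them. The TNF responses of single genes are from all libraries unless stated.

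TNF raised all 8 genes that had counts in every library, Irf1 and 7 GTPase genes, in each of the 4 treatments. Gbp5 and Gbp9 passed the filter on low counts only through the groups with TNF, so they had to differ, and their counts are described apart. A call is an adjusted p under 0.05 in edgeR's quasi-likelihood test with Benjamini-Hochberg adjustment, and among all 14428 genes 25% were called higher with TNF in SCO, 23.4% in CAP7, 24.9% in ROSI and 26.7% in DMSO. The 4 libraries with TNF lay above the 4 without for all 8 genes in every treatment, whereas groups did not overlap for 42.6% of all genes in SCO, 40.3% in CAP7, 40.6% in ROSI and 50.6% in DMSO. The median log2 change of these 8 genes was 2.69 in SCO, 3.08 in CAP7, 3.02 in ROSI and 2.77 in DMSO, beside medians between -0.01 and 0.01 over all genes. Without the 4 libraries that stood apart all 8 stayed called, and most changes outside SCO were larger. The libraries taken out were high ones without TNF and a low one with TNF, so larger changes follow from that choice. The largest move was that of Iigp1 in ROSI, from 3.75 to 4.96. Iigp1 moved from 4.19 to 5.12 in CAP7 and from 3.73 to 4.16 in DMSO, and Irf1 from 2.33 to 2.46 in ROSI.

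Irf1 (ENSMUSG00000018899), the transcription factor, was already expressed without TNF. With TNF and DMSO its 4 libraries held 425, 442, 449 and 504 CPM, against 57.7, 61.6, 60.0 and 61.8 CPM with DMSO alone. Its log2 change was 2.92 ± 0.0827 (SE, n = 4 against 4; edgeR's quasi-likelihood test, adjusted p = 3.26e-27). The log2 change was 2.56 ± 0.0821 in SCO, 2.54 ± 0.0811 in CAP7 and 2.33 ± 0.0808 in ROSI.

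Among the guanylate-binding proteins, Gbp2 (ENSMUSG00000028270), which is known from the mouse to act on parasite vacuoles, had 210.5, 226, 222 and 253 CPM with TNF and DMSO, against 10.2, 10.03, 11.1 and 16.6 CPM with DMSO alone. That is a log2 change of 4.27 ± 0.161. It ranged from 3.82 in ROSI to 4.27 in DMSO over the 4 treatments, and no library without TNF exceeded 22.2 CPM. Gbp7 (ENSMUSG00000040253), which takes part in defence against intracellular bacteria, had 353, 383, 382 and 466 CPM with TNF and DMSO, against 35.0, 53.0, 49.3 and 61.1 CPM with DMSO alone, a log2 change of 3.01 ± 0.296. Gbp3 (ENSMUSG00000028268) had 57.2, 58.7, 68.9 and 94.98 CPM with TNF and DMSO. With DMSO alone it had 6.12, 15.1, 10.7 and 22.6 CPM, which gives a log2 change of 2.41 ± 0.369, and the libraries with DMSO alone differed among themselves by up to 3.69-fold.

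Gbp5 (ENSMUSG00000105504), which promotes inflammasome assembly, was close to an on and off gene. It had 59.6, 61.4, 67.3 and 85.7 CPM with TNF and DMSO and no count in any of the 4 libraries with DMSO alone. The 6735 counts with TNF against 0 without give a level at least 1506-fold higher, taking 3 counts over the group as the floor. With the other treatments a few reads were seen without TNF, so ratios could be taken: 1048 in SCO (3334 against 2 counts; 95% counting interval 290 to 8657), 1381 in CAP7 (4465 against 3 counts; 472 to 6701) and 438 in ROSI (3571 against 7 counts; 213 to 1091). These intervals overlap, and they cover counting error only. Gbp9 (ENSMUSG00000029298) was the least counted of the 10, with 171 against 7 counts in DMSO (ratio 16.4, interval 7.79 to 41.4), 76 against 4 in SCO (11.9; 4.48 to 45.0), 138 against 2 in CAP7 (64.0; 17.4 to 534) and 130 against 0 in ROSI, at least 37.2-fold higher.

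Among the immunity-related GTPases, Iigp1 (ENSMUSG00000054072), the effector of the 4, had 125, 143, 169 and 243 CPM with TNF and DMSO, against 4.99, 13.1, 11.5 and 24.1 CPM with DMSO alone, a log2 change of 3.73 ± 0.463. The 3 regulatory members changed by less in DMSO: Igtp (ENSMUSG00000078853) by 2.63 ± 0.332, Irgm2 (ENSMUSG00000069874) by 2.62 ± 0.313 and Irgm1 (ENSMUSG00000046879), which also acts in autophagy, by 2.10 ± 0.266 on the log2 scale. Irgm1 had 14.0, 14.6, 17.4 and 22.2 CPM with TNF and DMSO, against 2.91, 3.11, 4.48 and 5.79 CPM with DMSO alone. Igtp and Irgm2, whose promoter windows are alike in part, had 63.9 ± 15.7 and 74.7 ± 19.3 CPM with TNF and DMSO, against 10.8 ± 5.64 and 12.5 ± 5.19 CPM with DMSO alone (SD, n = 4).

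**Figure D2:**
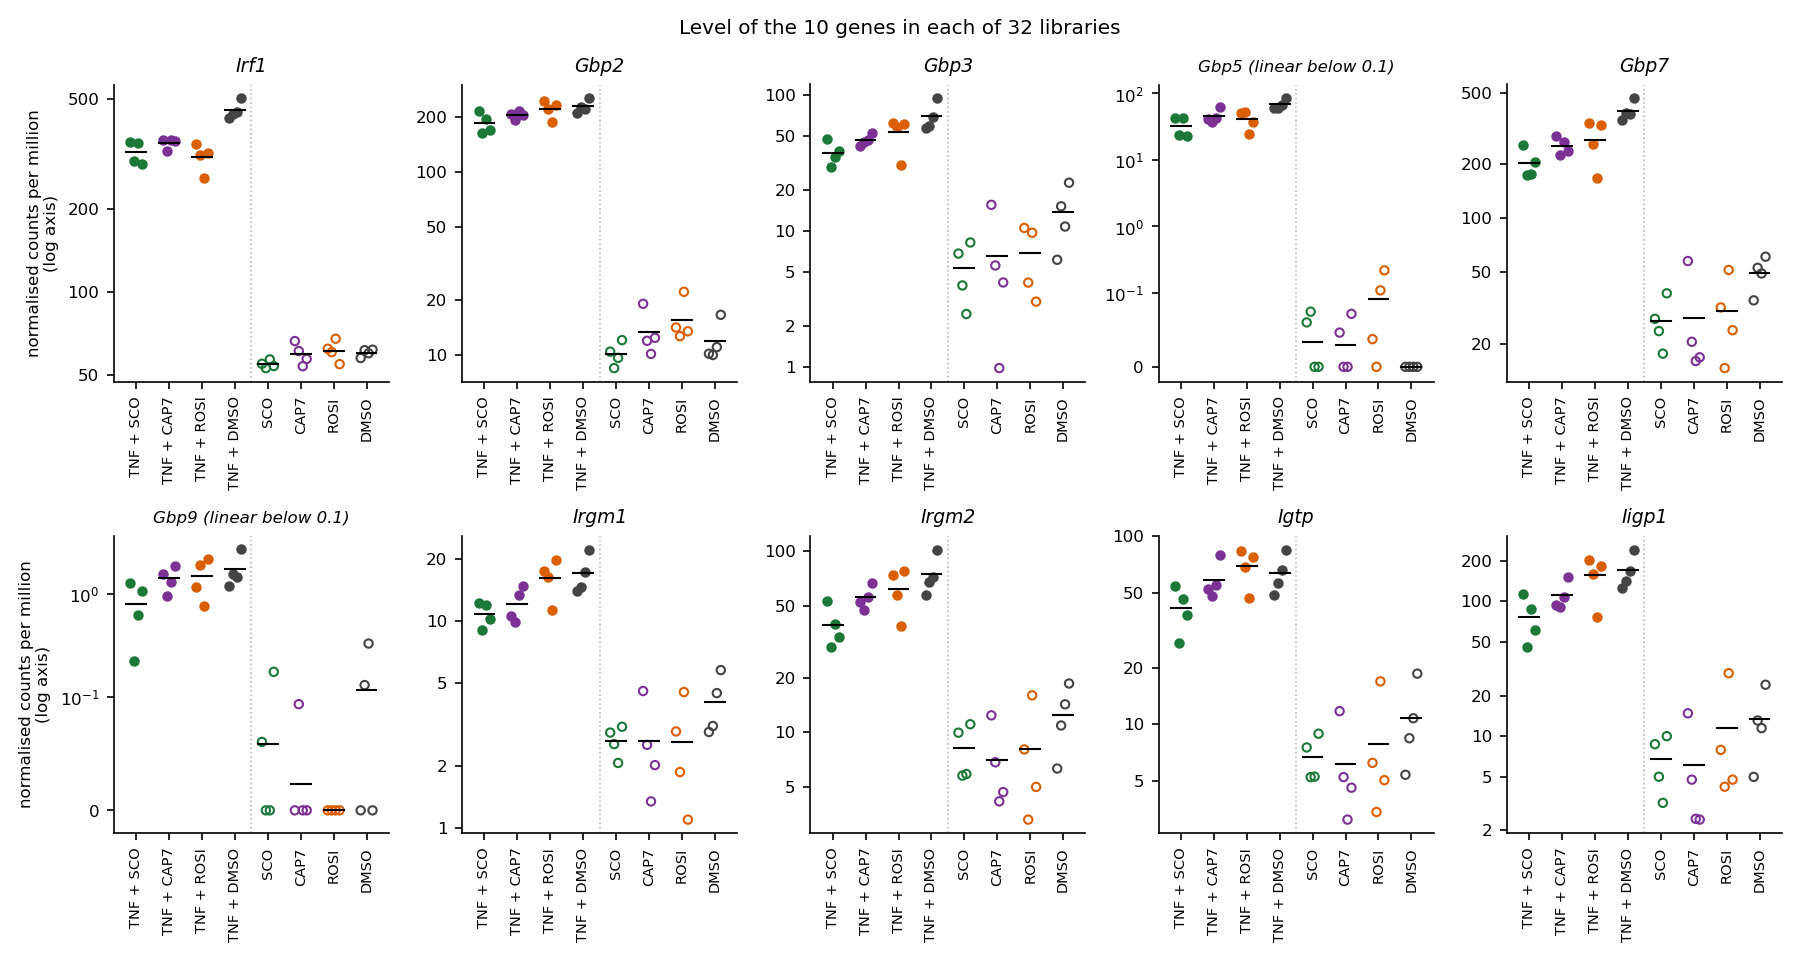
Normalised CPM of the 10 genes in each of 32 libraries (points; bars are group means; log axes, linear below 0.1 for Gbp5 and Gbp9), groups with TNF left of the dotted line. Every library with TNF lies above every library of the same treatment without it for each gene other than Gbp5 and Gbp9. Gbp5 and Gbp9 separate too, but passed the filter on low counts only through the groups with TNF, so they had to differ. Over all genes tested, groups did not overlap for 40.3% (CAP7) to 50.6% (DMSO). The 4 Irf1 points of TNF with DMSO, from 425 to 504, lie above all other Irf1 points.

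**Figure D3:**
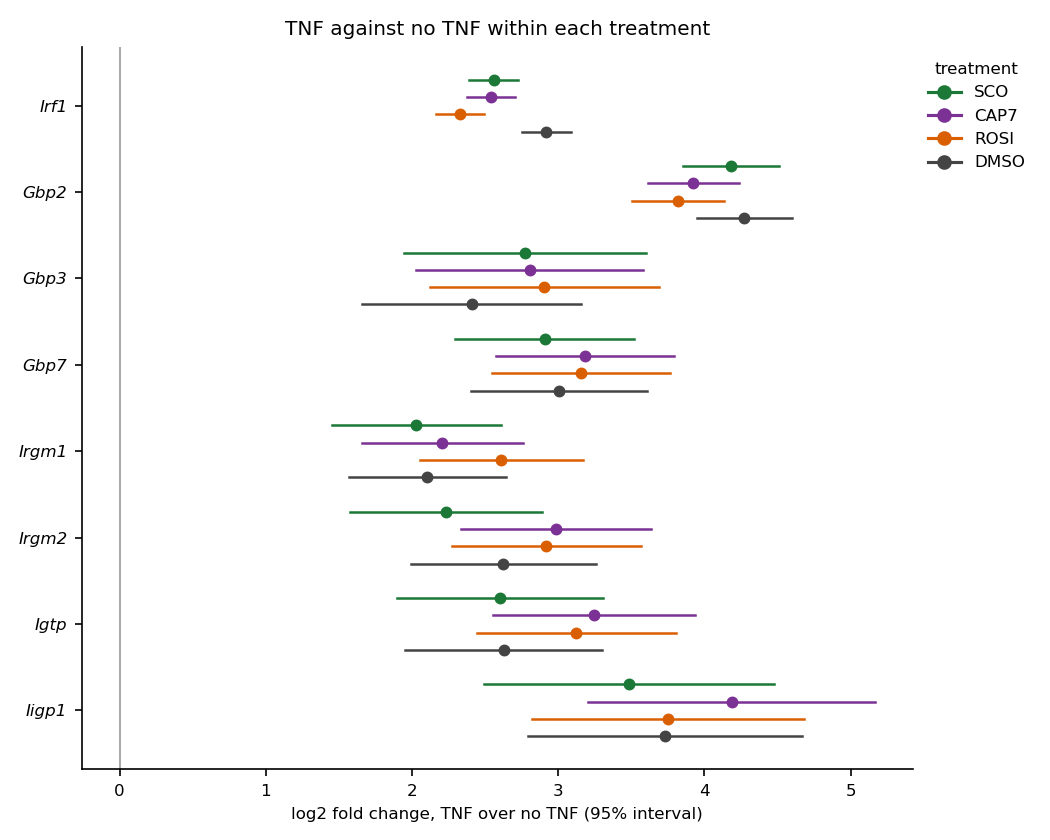
Log2 fold change of TNF over no TNF with its 95% interval for the 8 genes with counts in every library, by treatment. All intervals lie above 0. For Irf1 the values are 2.56 in SCO, 2.54 in CAP7, 2.33 in ROSI and 2.92 in DMSO, while the wider intervals of the other 7 genes overlap between treatments.

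Whether the TNF response differed with a treatment was tested as an interaction. The Irf1 response was smaller in CAP7 than in DMSO by a log2 of -0.38 (95% interval -0.60 to -0.16; edgeR's quasi-likelihood test, adjusted p = 0.0138) and in ROSI by -0.59 (-0.81 to -0.37; adjusted p = 0.000134). In SCO the difference was -0.36 (-0.59 to -0.14), which missed the threshold (edgeR adjusted p = 0.0509; called in 9 of 25 alternative settings). Over all genes the interaction was called for 4.64% in SCO, 16.2% in CAP7 and 14.6% in ROSI. None of the 9 GTPase genes was called in these 3 tests in edgeR. At an unadjusted p under 0.05, counting all 10 genes, there was 1 gene in SCO, 1 in CAP7 and 3 in ROSI. DESeq2 called 1, 1 and 2 genes in the same order, and limma-voom called 0, 1 and 1. In ROSI the 3 genes at an unadjusted p included Gbp9, and the DESeq2 call beside Irf1 was Gbp5. Both rest on a few reads without TNF: 0 counts in ROSI and 7 in DMSO for Gbp9, and 7 in ROSI and 0 in DMSO for Gbp5. They are too few to compare TNF responses. For Gbp7 the interval of the interaction ran from -0.92 to 0.72 in SCO, from -0.63 to 0.98 in CAP7 and from -0.66 to 0.95 in ROSI, so a change of response of the size seen for Irf1 was not detectable for Gbp7 at this spread.

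With TNF present, SCO lowered 6 of the 10 genes relative to DMSO and raised none, beside 8.09% of all genes called lower. CAP7 lowered 2, beside 14.2% of all genes, and ROSI lowered 2, beside 16.3%. Irf1 and Gbp5 were called lower with all 3 treatments. These 3 comparisons share the same 4 DMSO libraries with TNF. In SCO 7 of the 10 genes had groups that did not overlap, in CAP7 3 and in ROSI 3, beside 23.6%, 31.2% and 35.3% of all genes. For CAP7 and ROSI both counts, of calls and of groups without overlap, are near the shares of all genes. They are not read as a result about the 10 genes as a set.

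Irf1 had 349.9, 299, 347 and 291 CPM with TNF and SCO, 355, 324, 355 and 353 with TNF and CAP7, and 344, 313, 258 and 318 with TNF and ROSI, against 425, 442, 449 and 504 with TNF and DMSO. No library of the 3 treatments reached the lowest DMSO library, and the 3 treatments overlapped each other. The log2 differences from DMSO were -0.50 ± 0.0756 in SCO, -0.39 ± 0.0755 in CAP7 and -0.56 ± 0.0758 in ROSI (edgeR's quasi-likelihood test, adjusted p = 2.55e-06, 7.03e-05 and 1.05e-07). Without TNF the same contrasts of Irf1 were -0.14 ± 0.081, -0.01 ± 0.0799 and 0.03 ± 0.08, and none passed the test.

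Gbp5 had 42.4, 23.6, 42.6 and 23.3 CPM with TNF and SCO, 42.0, 37.5, 43.5 and 63.3 with TNF and CAP7, and 51.4, 53.4, 24.6 and 37.8 with TNF and ROSI, against 59.6, 61.4, 67.3 and 85.7 with TNF and DMSO. SCO and ROSI libraries lay below all DMSO libraries, while 1 CAP7 library overlapped them. The log2 differences were -1.05 ± 0.192 in SCO, -0.55 ± 0.19 in CAP7 and -0.72 ± 0.191 in ROSI. The CAP7 call was lost without TNF and CAP7 replicate 1, 2 or 3 or without TNF and DMSO replicate 4, with adjusted p up to 0.109 in edgeR.

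The other 4 genes called in SCO were Gbp7, Irgm2, Iigp1 and Irgm1. Gbp7 had 255, 174, 175 and 205 CPM with TNF and SCO, against 353, 383, 382 and 466 with TNF and DMSO, with no overlap and a log2 difference of -0.97 ± 0.271 (edgeR adjusted p = 0.00778). Irgm2 had 52.7, 29.7, 39.6 and 33.4 CPM with TNF and SCO, against 56.8, 67.9, 71.9 and 102.0 with TNF and DMSO, again without overlap (-0.94 ± 0.279). Iigp1 had 114, 46.3, 87.4 and 61.2 CPM with TNF and SCO, against 125, 143, 169 and 243 with TNF and DMSO (-1.13 ± 0.394). These groups did not overlap either, although the libraries differed by up to 2.46-fold within SCO and 1.95-fold within DMSO.

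Irgm1 had 12.2, 9.03, 11.97 and 10.3 CPM with TNF and SCO, against 14.0, 14.6, 17.4 and 22.2 with TNF and DMSO (-0.65 ± 0.236). The groups did not overlap, and the call was near the threshold (edgeR adjusted p = 0.0446). The count of 6 in SCO fell to 3 without TNF and DMSO replicate 4 or without TNF and SCO replicate 2, and it was 3 with DESeq2 and 10 with limma-voom. Without the 4 libraries that stood apart, 9 genes were called lower with TNF in SCO (8.42% of all genes) and 5 in CAP7 (14.7%). In ROSI 2 were called lower (14.7%), where Irf1 then stood at -0.49 and Gbp5 at -0.53. The 4 libraries were picked on these genes' own deviations. None of them is in the groups of the SCO and CAP7 comparisons. Igtp in SCO was at -0.63 in both fits, with edgeR adjusted p = 0.13 with all libraries and 0.00962 without the 4. The added calls in SCO and CAP7 thus came without larger differences, as the spread is estimated over all groups. With all libraries Gbp2, Gbp3, Gbp9 and Igtp did not pass in SCO. Their log2 differences were -0.29 ± 0.132, -0.89 ± 0.333, -1.13 ± 0.54 and -0.63 ± 0.29. The 8 genes with counts in every library had a median log2 difference of -0.77 in SCO, -0.45 in CAP7 and -0.20 in ROSI, beside medians between -0.03 and 0.01 over all genes in the comparisons of a treatment with DMSO.

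**Figure D4:**
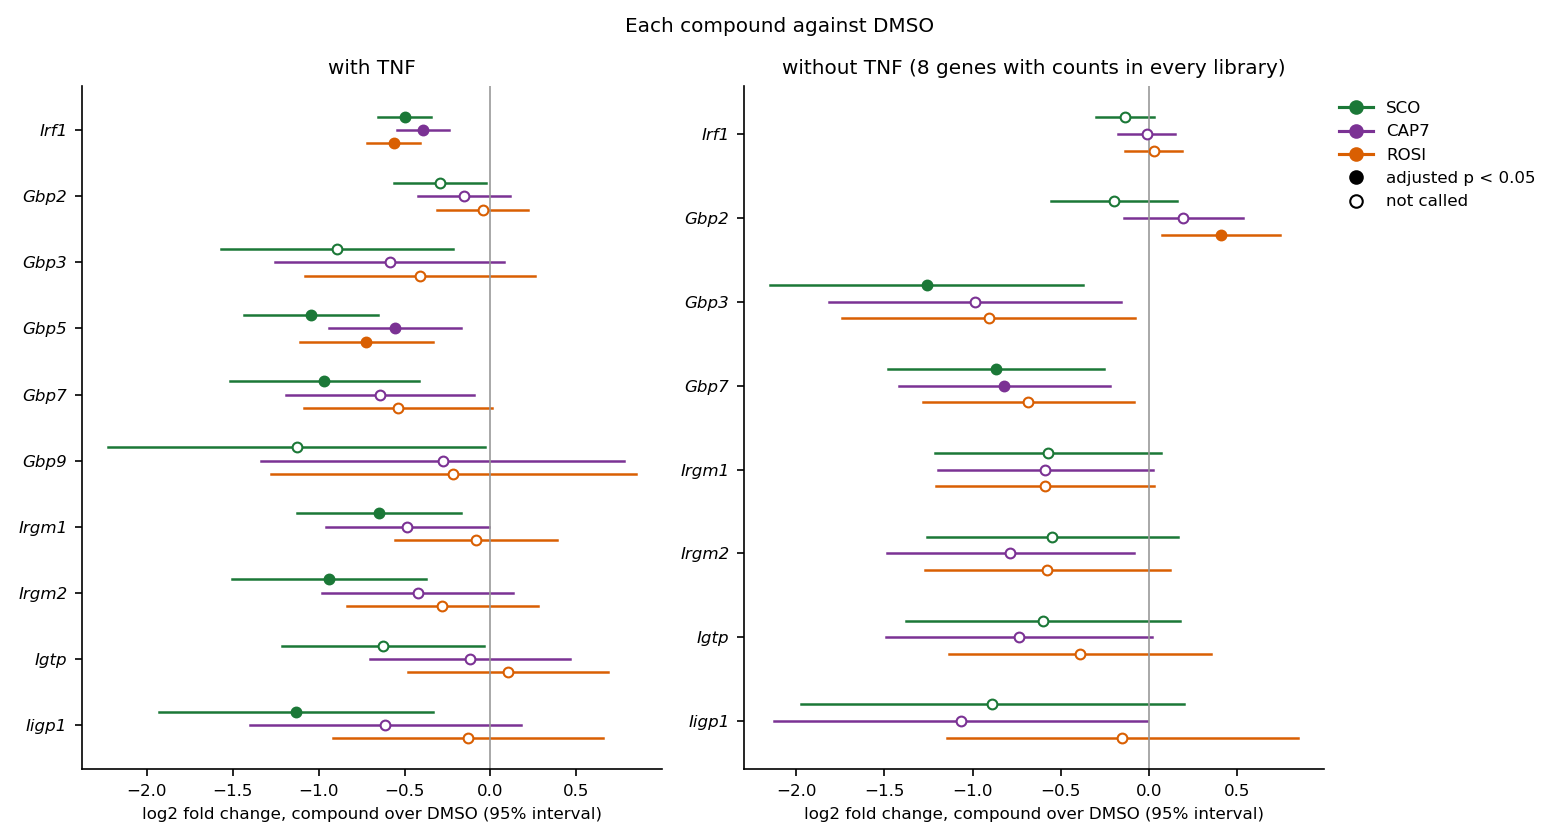
Log2 fold change of SCO, CAP7 and ROSI over DMSO with its 95% interval, with TNF (left, 10 genes) and without (right, 8 genes), filled points for an adjusted p under 0.05. With TNF, Irf1 and Gbp5 are filled for all 3 treatments, and SCO has 4 more filled genes with values down to -1.13.

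Other measurements moved with these differences. The adipocyte markers summed to between 34130 and 41299 CPM with TNF and SCO, between 36888 and 45553 with TNF and CAP7, and between 53391 and 66528 with TNF and ROSI, against 12698 to 14815 with TNF and DMSO. The preadipocyte and fibroblast list of 7 genes summed to between 652 and 804, 558 and 779, and 643 and 804 CPM with the 3 treatments in the same order, against 875 to 945 with TNF and DMSO. The macrophage and leukocyte list summed to between 11.2 and 13.9, 11.1 and 17.8, and 9.23 and 11.8 CPM, against 23.6 to 28.3 with TNF and DMSO, and the members of it that moved were Cd74 and Cd68, while Adgre1 and Tyrobp had no count. Their part in the Irf1 and GTPase differences was not tested.

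Without TNF the calls were few. SCO lowered 2 of the 10 genes, Gbp3 by a log2 of -1.26 ± 0.437 and Gbp7 by -0.87 ± 0.301, beside 8.99% of all genes called lower. CAP7 lowered Gbp7 by -0.82 ± 0.295, beside 15% of all genes. In ROSI Gbp2 was called higher by 0.41 ± 0.165, beside 18.4% of all genes, and Gbp9 was called lower, beside 19%. None of these 5 calls held throughout: those of Gbp3 and Gbp7 in SCO were lost in 6 and 8 of 17 alternative settings, that of Gbp7 in CAP7 in 7 of 17, and those of Gbp2 and Gbp9 in ROSI in 9 of 17 and 7 of 15 (highest adjusted p 0.364 and 0.315 over the edgeR, DESeq2 and limma-voom settings).

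Gbp3 had 6.80, 3.96, 2.44 and 8.20 CPM with SCO, against 6.12, 15.1, 10.7 and 22.6 CPM with DMSO, and the groups overlapped. Gbp2 had 14.2, 12.7, 22.2 and 13.5 CPM with ROSI, against 10.2, 10.03, 11.1 and 16.6 CPM with DMSO, again with overlap. Gbp9 had 0 counts in all 4 ROSI libraries, against 0, 2, 5 and 0 counts with DMSO, too few to compare levels.

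Marker levels moved here as well. The adipocyte markers summed to between 64992 and 72663 CPM with SCO, between 54762 and 67766 with CAP7 and between 72568 and 85772 with ROSI, against 42445 to 44807 with DMSO. Such a sum is weighted to the most abundant markers. Of the 10 markers 5 were called higher and 1 lower in SCO, 8 and 1 in CAP7, and 7 and 1 in ROSI. Their median log2 changes were 0.19, 0.39 and 0.36 in that order. The preadipocyte and fibroblast list summed to between 656 and 731, 553 and 678, and 666 and 758 CPM with the 3 treatments in the same order, against 887 to 1045 with DMSO. The macrophage and leukocyte list, at 1.34 to 3.49, 1.49 to 3.30 and 2.30 to 2.98 CPM, overlapped the 2.00 to 4.87 CPM with DMSO. Their part in these calls was not tested.

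Gbp7, called in SCO and CAP7, had 27.6, 23.6, 17.7 and 38.3 CPM with SCO, 57.8, 20.6, 16.1 and 16.9 with CAP7, and 31.9, 14.7, 51.6 and 23.9 with ROSI, against 35.0, 53.0, 49.3 and 61.1 with DMSO. In each of the 3 treatments 1 library lay among the DMSO libraries and the other 3 below all of them. Without the 4 libraries that stood apart, the log2 differences of Gbp7 from DMSO were -0.75 in SCO, -1.35 in CAP7 and -0.93 in ROSI. All 3 were called in that fit (edgeR's quasi-likelihood test, adjusted p = 0.0039, 3.79e-06 and 0.000406). The 4 libraries were picked on these genes' own deviations, and CAP7 replicate 1 on Gbp7 itself. The calls of that fit are therefore a description. In the same fit Gbp7 was the 1 gene called lower in SCO (8.68% of all genes), 6 were called lower in CAP7 (13.8%) and 4 in ROSI (16.5%), while Gbp2 was called higher in ROSI by 0.38 (16% of all genes). Among the groups without TNF, single libraries decided the counts. Leaving out CAP7 replicate 1 brought the CAP7 count to 6 and DMSO replicate 1 brought it to 5, while leaving out any other CAP7 or DMSO library brought it to 0. Leaving out ROSI replicate 3 lost both ROSI calls, Gbp2 and Gbp9, and brought in 4 others, Gbp7, Irgm1, Irgm2 and Igtp, all lower. Leaving out DMSO replicate 2 or 3 brought the ROSI count to 0, and ROSI replicate 2 or 4 brought it to 1. The SCO count was 0 without DMSO replicate 2 or 4 or SCO replicate 2 or 3, and 1 without DMSO replicate 3 or SCO replicate 1.

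The treatments were also compared in pairs, 3 without and 3 with TNF. Gbp2 without TNF was the gene called, with 10.5, 8.51, 9.68 and 12.1 CPM in SCO against 14.2, 12.7, 22.2 and 13.5 in ROSI, a log2 difference of -0.61 ± 0.169 (edgeR's quasi-likelihood test, adjusted p = 0.0103), beside 14.7% of all genes called either way. The groups did not overlap. The call was lost without ROSI replicate 3 and with limma-voom, with adjusted p up to 0.103, and it was -0.40 (edgeR adjusted p = 0.0116) without all 4 libraries that stood apart. In the other 5 pairs 0 of the 10 genes were called by edgeR. At an unadjusted p under 0.05 there were 4 genes for SCO against ROSI with TNF, 1 for CAP7 against ROSI with TNF, 1 for SCO against CAP7 with TNF, 1 for SCO against CAP7 without TNF and 0 for CAP7 against ROSI without TNF. Of these 5 pairs limma-voom called 2 genes for SCO against ROSI with TNF, and DESeq2 called 0 in all 5. Over all genes the share called either way in the 5 pairs was 14.4%, 8.57%, 9.16%, 6.04% and 11.7%.

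The low ROSI library bears on the comparison of SCO with ROSI in the presence of TNF. Iigp1 had 114, 46.3, 87.4 and 61.2 CPM with TNF and SCO, against 205, 159.6, 77.1 and 182 with TNF and ROSI, where replicate 3 is the low value. The log2 difference was -1.004 (95% interval -1.80 to -0.20; edgeR adjusted p = 0.0842), and it was called without that library. Without all 4 libraries that stood apart, 6 of the 10 genes were called lower in SCO than in ROSI with TNF, from -0.32 for Gbp2 to -1.23 for Iigp1, beside 8.24% of all genes. With all libraries 0 were called, and the 4 libraries were picked on these genes' own deviations, so the 6 calls are a description. For Irf1 the interval of the same pair ran from -0.09 to 0.22, and for CAP7 against ROSI from 0.02 to 0.32 (adjusted p = 0.183).

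Among the groups with TNF the order of mean levels was much alike for the 10 genes. TNF with DMSO was the highest group for 9 of them, and TNF with SCO was the lowest of the TNF groups for 9. The exceptions were Igtp, where TNF with ROSI (69.1 ± 16.002 CPM) stood above TNF with DMSO (63.9 ± 15.7) with overlapping libraries, and Irf1, where TNF with ROSI was the lowest TNF group (308 ± 36.1 CPM). Irf1 and Gbp7 were the genes whose TNF with DMSO group did not overlap the next group, at 455 ± 34.1 against 347 ± 15.3 CPM (TNF with CAP7) for Irf1 and at 396 ± 48.7 against 273 ± 79.4 CPM (TNF with ROSI) for Gbp7. For the other 8 genes neighbouring TNF groups overlapped in their libraries, and for all 10 so did neighbouring groups without TNF. Among the groups without TNF the order differed between genes, and ROSI had the highest mean for 3 genes and DMSO for 7. The lowest mean was that of SCO for 4 genes, CAP7 for 3, ROSI for 2 and DMSO for 1. This tally includes Gbp5 and Gbp9, whose counts without TNF are too few to rank groups. The 1 gene with DMSO lowest is Gbp5, which had no count there.

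Libraries of a group differed more for most GTPase genes than for a typical gene. Without TNF the SD of log2(CPM + 0.5) within groups was 1.004 for Iigp1, 0.97 for Gbp3, 0.71 for Igtp, 0.69 for Irgm2, 0.63 for Gbp7, 0.53 for Irgm1 and 0.32 for Gbp2, against a median of 0.19 over all genes tested. For Irf1 it was 0.10, below that median. With TNF the SD was 0.50 for Iigp1 and 0.14 for Gbp2, against 0.13 for Irf1 and a median of 0.18. Gbp3 with CAP7 alone gives the widest example, with 15.5, 5.55, 0.975 and 4.16 CPM in its 4 libraries, a 15.9-fold range.

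These deviations were shared between genes. For the 7 GTPase genes with counts in every library, 1 and the same library was highest for all 7 in 5 of the 8 groups, and 1 was lowest for all 7 in 3 groups. In CAP7 without TNF, replicate 1 was highest for all 7, with a median deviation of 1.03 on the log2 scale from its group mean, while its Irf1 deviation was 0.16. In ROSI without TNF replicate 3 stood at 0.89 with an Irf1 deviation of 0.15, in DMSO without TNF replicate 4 at 0.65 with 0.04, and in ROSI with TNF replicate 3 at -0.62 with -0.25. DMSO without TNF replicate 4 had the lowest total of all libraries and ROSI with TNF replicate 3 the highest (11.3 M and 37.7 M counts), while the other 2 had 21.95 M and 19.3 M counts. The part of depth in these deviations was not tested.

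**Figure D5:**
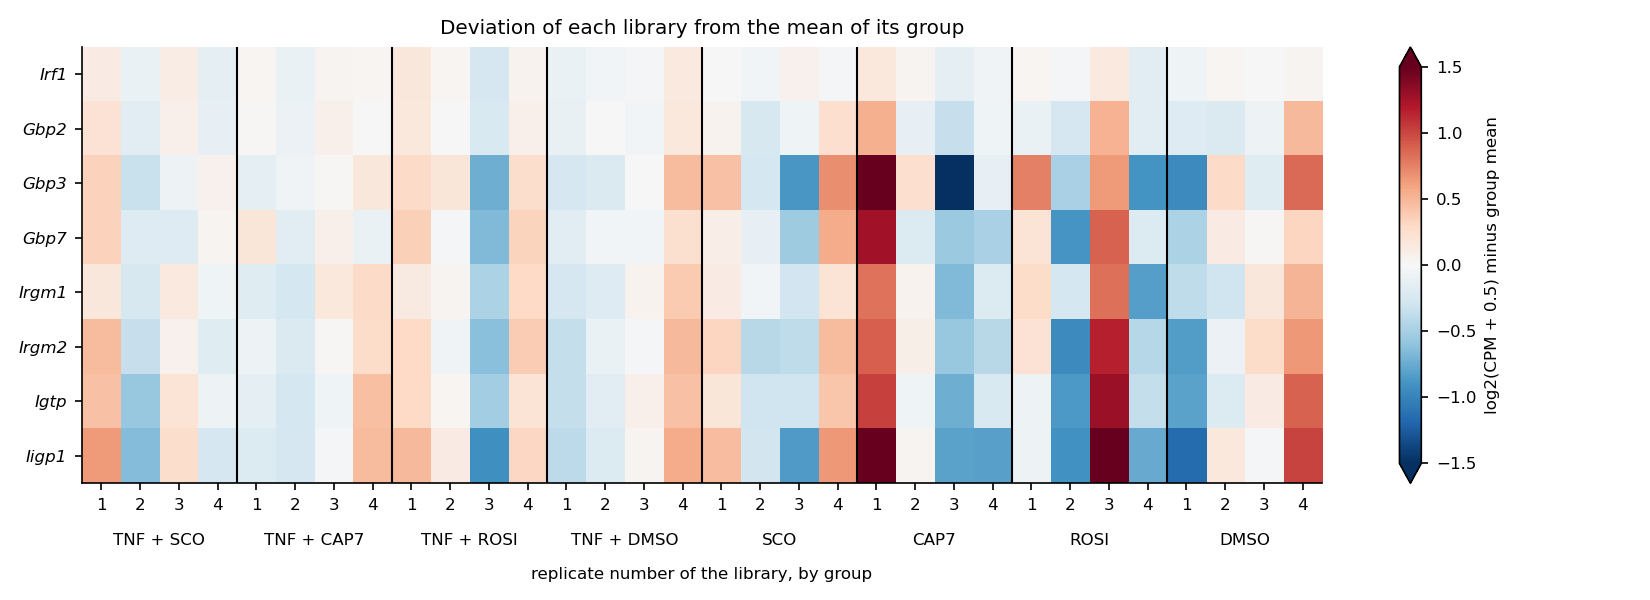
Deviation of each of 32 libraries from its group mean, in log2(CPM + 0.5), for the 8 genes with counts in every library, red above and blue below the mean. Columns of 1 colour run through the 7 GTPase genes, such as CAP7 replicate 1 without TNF with a median of 1.03. The Irf1 row is paler, with deviations from -0.25 to 0.17, but has the same sign in the 4 libraries that stood apart.

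The genes most like these 10 across the 32 libraries were sought among all others, by Pearson's r with the mean standardised log2 CPM of the 10. The highest r values were those of Ifi47, itself an immunity-related GTPase (0.997), Herc6, an E3 ligase for the ubiquitin-like ISG15 (0.991), the antiviral enzyme Rsad2, the nucleic acid sensor Zbp1 and Ifi202b (each 0.989), and the antiviral membrane protein Ifitm3 (0.988). The libraries with and without TNF form separate clusters, and these r values are largely set by that split. The mean of the libraries with TNF and of those without was then taken off. The most alike genes were then Ifi47 (0.963), Ifit3 (0.962), Ifit1 (0.945), Phf11d (0.944), Rsad2 (0.942) and Tap1 (0.927). Among the 10 genes themselves Gbp5 (0.62), Gbp9 (0.64), Irf1 (0.71) and Gbp2 (0.72) had the lowest r. Ifi47 had 49.1 ± 14.6 CPM with TNF and SCO, 62.9 ± 6.06 with TNF and CAP7, 71.4 ± 24.6 with TNF and ROSI and 96.6 ± 22.3 with TNF and DMSO (SD, n = 4). The libraries share their treatments and scaling, so r describes likeness and is not tested.

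The rest of the pathway was followed in lists written from general knowledge. Of 19 other interferon-inducible GTPases 12 were tested, and all 12 rose with TNF in DMSO, beside 26.7% of all genes called higher. Their median log2 change was 3.599, and among them were Gbp2b (4.25 ± 0.36), Ifi47 (4.33 ± 0.35), Gbp6 (3.12 ± 0.27) and the antiviral dynamin-like Mx1 (4.45 ± 0.66). With TNF, SCO lowered 3 of the 12, beside 8.09% of all genes: Mx1 by -1.75 ± 0.49, Mx2 by -1.11 ± 0.41 and Ifi47 by -0.97 ± 0.27.

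The ligands that induce these genes were almost unread. Ifng had no count in any of the 32 libraries, nor had Ifna1, Ifna2, Ifnl2 and Ifnl3. Ifnb1, the type I interferon of most non-immune cells, had 15 counts in 6 libraries, Ifne 3 in 2 libraries and Ifna4 1. A 3′ tag library can miss a rare transcript, so protein or brief expression before the 24 h point is not addressed. Of the 14 ligand and receptor genes 5 were tested, all receptor chains, and 4 rose with TNF in DMSO, beside 26.7% of all genes called higher. These were Ifngr1 (1.26 ± 0.061) and Ifngr2 (1.81 ± 0.11), which form the interferon-gamma receptor, and Ifnar2 (1.53 ± 0.068) and Ifnar1 (0.56 ± 0.12), which form the type I receptor.

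Of 10 tested genes of the JAK-STAT relay 8 rose with TNF in DMSO, including the kinase Jak2 (2.15 ± 0.098) and Stat2 (1.66 ± 0.24). Over all genes 26.7% were called higher. With TNF, SCO raised 1 of the 10 and lowered 4, CAP7 raised 0 and lowered 3, and ROSI raised 2 and lowered 3. Of all genes 8.09%, 14.2% and 16.3% were called lower in that order. Over the 6 comparisons of a treatment with DMSO 49.2% to 62.0% of all calls were higher. Jak2 was lower with all 3 treatments, by -0.63 ± 0.09 in SCO, -0.69 ± 0.09 in CAP7 and -0.75 ± 0.091 in ROSI. Stat5a was higher in SCO by 0.30 ± 0.08 and in ROSI by 0.40 ± 0.08. Of 12 feedback inhibitors of this relay 7 rose and 2 fell with TNF in DMSO, with Socs1 at 1.89 ± 0.22 and Socs3 at 1.63 ± 0.1. Of 8 tested other IRF factors 4 rose and 2 fell, with Irf5 at 3.61 ± 0.45 and Irf2, which competes with IRF1 for its sites, at 1.32 ± 0.093. Of all TNF calls 49.3% to 52.6% over the 4 treatments were higher, and the rest were lower.

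Interferon target genes outside the GTPase families gave 18 of 18 tested genes higher with TNF in DMSO, with a median of 2.19, beside 26.7% of all genes. Psmb8, an immunoproteasome subunit, rose by 3.19 ± 0.17, and the chemokines Cxcl9 and Cxcl10 by 5.79 ± 0.33 and 7.996 ± 0.45. With TNF, SCO lowered 11 of the 18 and raised 0, CAP7 lowered 6 and raised 1, and ROSI lowered 3 and raised 1. Of all genes 8.09%, 14.2% and 16.3% were called lower in the same order, so the ROSI share of this list is near that of all genes. Cd274, which encodes the checkpoint ligand PD-L1, was lower with each, by -1.14 ± 0.11, -0.88 ± 0.11 and -1.05 ± 0.11. All 10 genes of NF-κB feedback rose with TNF in DMSO, beside the same 26.7%. With TNF, SCO lowered 4 of the 10, CAP7 5 and ROSI 5, and none was raised, beside 8.09%, 14.2% and 16.3% of all genes called lower. Nfkbie, an inhibitor of NF-κB, was lower by -0.74 ± 0.13 in SCO, -0.76 ± 0.13 in CAP7 and -0.74 ± 0.14 in ROSI. The main inhibitor Nfkbia, which rose with TNF in DMSO by 2.96 ± 0.073, changed by -0.06 ± 0.067 in SCO and -0.06 ± 0.067 in CAP7 with TNF, neither called, and by -0.20 ± 0.067 in ROSI, called lower.

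Of 16 tested partners of these GTPases in autophagy and inflammasomes 6 rose and 5 fell with TNF in DMSO, with a median of 0.02. Over all genes 26.7% were called higher with TNF in DMSO. Of all TNF calls 49.3% to 52.6% over the 4 treatments were higher. These counts are thus not far from those of all genes and are not read as a result about the list. Among those that rose were the inflammasome sensor Nlrp3 (6.63 ± 0.64), the non-canonical caspase Casp4 (4.17 ± 0.18), the pore former Gsdmd (3.59 ± 0.34) and Gabarapl1 of the autophagosome family (0.40 ± 0.064), while Map1lc3a, an LC3 protein of autophagosomes, fell by 0.27 on the log2 scale. Casp4 was lower with TNF and each treatment than with TNF and DMSO, by -0.63 ± 0.13 in SCO, -0.64 ± 0.13 in CAP7 and -0.60 ± 0.14 in ROSI.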

How the data were processed

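The authors deposited unnormalized read counts by Ensembl gene from 32 QuantSeq 3′ libraries. The submitters' processing notes name build GRCm39 and, among tools, STAR 2.7.11b, HTSeq 2.0.5, limma 3.60.6, cutadapt 4.9 and R 4.4.1, with no role given. The handling of reads that match several genes is not stated. Of the last 400 bases of their transcripts (GENCODE M21), Gbp3 shared 4.30% of 50-base words with Gbp7, Gbp9 4.84%, Gbp5 2.12% and Irgm1 5.07% with other genes. These are shares of words, not of reads, and the effect on counts was not measured. Symbols matched 51880 of 57186 IDs. The labels call the libraries biological replicates, without saying whether cultures were separate, and give no batch. P-values then measure only the spread between these samples, which may be technical.

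Counts were fitted here with edgeR 4.0.16 in R 4.3.3 (TMM, filterByExpr by group, 1 mean per group, all libraries, quasi-likelihood F test, Benjamini-Hochberg over 14428 genes, called under 0.05), with 95% intervals. The method was tested on simulated counts. Alternatives were RLE factors, library sizes alone, no filter, at least 5 CPM in 4 libraries, DESeq2 1.42.0, limma-voom (limma 3.58.1), a replicate block, the compared groups alone and leaving out each library. A fit without the 4 libraries that stood apart was chosen after seeing the data. These were the libraries highest or lowest in their group for at least 6 of 7 GTPase genes and far from the others for at least 1 gene. The first condition was met by 12 libraries. Members and lists were chosen with earlier results of these data known. List genes were named by the lowest p for TNF in DMSO and for SCO with TNF, up to 4 each. Promoters are RefSeq's for GRCm38.p6, another build than that of the counts.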

Additional observations from a re-analysis of the deposited data

Results flagged for a closer look

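In 7 of 78 gene and group combinations a library lay far from the other 3 of its group by Dixon's criterion, which chance gives in about 1 of 20. These were Irf1 in TNF with CAP7 replicate 2 (324 CPM), Gbp3 in TNF with ROSI replicate 3 (30.4 CPM), Gbp7 in CAP7 replicate 1 (57.8 CPM), Gbp2 and Iigp1 in ROSI replicate 3 (22.2 and 29.4 CPM), Gbp2 in DMSO replicate 4 (16.6 CPM) and Gbp9 in CAP7 replicate 2 (0.0933 CPM), the last 5 in groups without TNF. The Gbp9 flag is 2 counts against 0 in the rest of its group. The criterion is always met when only 1 library of a group has a count, so this flag does not bear on the rate. The TNF response of Irf1 was smaller than in DMSO by a log2 of -0.38 in CAP7 and -0.59 in ROSI, which passed the test of the difference itself in edgeR.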

How the results depend on the processing

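The 8 genes with counts in every library stayed called higher with TNF in each treatment under every setting, and so did the Irf1 falls with TNF in all 3 treatments and its CAP7 and ROSI interactions. No called gene changed sign. Counts of the 10 genes called moved as follows. Without a filter they were 6, 6 and 8 for SCO, CAP7 and ROSI without TNF, 7 for CAP7 and 5 for ROSI with TNF, 2, 1 and 1 for SCO against ROSI, CAP7 against ROSI and SCO against CAP7 without TNF, 8, 1 and 6 for these pairs with TNF, and 1, 4 and 5 for the SCO, CAP7 and ROSI interactions. In that fit the spread of each gene was fully replaced by the common trend (for Iigp1 0.79 against 19.01 with the filter). With DESeq2 the counts were 1 and 0 for SCO and CAP7 without TNF, 3 for SCO with TNF, and 1 and 2 for the SCO and ROSI interactions. With limma-voom they were 0 and 1 for SCO and ROSI without TNF, 10 and 5 for SCO and CAP7 with TNF, and 0 and 2 for SCO against ROSI without and with TNF. With library sizes alone they were 3, 4, 4 and 1 for CAP7 without TNF, ROSI without TNF, CAP7 with TNF and the SCO interaction, and 27.8% to 44.2% of all calls of a treatment against DMSO were then higher, against 49.2% to 62.0%. With at least 5 CPM in 4 libraries they were 0 for ROSI without TNF and 1 for the SCO interaction. With only the compared groups they were 2 for CAP7 without TNF, 7 for CAP7 with TNF, 4 and 1 for SCO against ROSI and SCO against CAP7 with TNF, and 1 for the SCO interaction. Without the 4 libraries that stood apart they were 1, 6 and 5 for SCO, CAP7 and ROSI without TNF, 5 for CAP7 with TNF, 6 for SCO against ROSI with TNF and 1 for the SCO interaction. Apart from the filter, the causes were not tested.

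Leaving out 1 library gave 0 to 2, 0 to 6 and 0 to 4 for SCO, CAP7 and ROSI without TNF, 3 to 6, 1 to 2 and 2 to 2 with TNF, 0 to 1 for SCO against ROSI without and with TNF and for CAP7 against ROSI without TNF, and 0 to 1, 1 to 1 and 1 to 2 for the SCO, CAP7 and ROSI interactions. The deviations of same-numbered libraries correlated weakly at most (from -0.106 to 0.112), and the main fit does not pair them. All 4 libraries correlated best with their own number in 2 of 16 comparisons, a hint of pairing from the data alone. Whether the numbers pair the libraries is thus not settled. The replicate block moved the CAP7 count without TNF to 2 and no other count beyond 1.5 times. Low counts limit Gbp5 and Gbp9 without TNF.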
